A study of Paralichthys olivaceus with 22 samples.

Results

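Kidney RNA from Japanese flounder that had received the E. tarda FKC preparation 6 h earlier was compared with kidney RNA from fish that had received PBS 6 h earlier. The comparison rests on 7 of the 22 arrays of the study, chosen by their titles, with 3 arrays of E. tarda FKC and 4 arrays of PBS, both at 6 h. Each array carried 1 Cy3-labelled sample on a custom Agilent design with 14481 probes. The remaining arrays held 3 samples of S. iniae FKC at 6 h, and 4 samples of each of the 3 treatments at 12 h. The labels give no dose, route, strain, age or sex, and do not define FKC. They number the samples of a group and leave unsaid if these are different fish, so each p-value reflects only the variation between these samples, which may be technical.

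In teleost fish the kidney forms blood cells and is a main site of immune defence. Edwardsiella tarda is a Gram-negative bacterium and Streptococcus iniae a Gram-positive one, and both cause disease in farmed flounder. Fish receiving bacterial antigen commonly answer with inflammatory signals and acute phase proteins. In RNA of a whole organ, fewer cells of a type and less RNA per cell cannot be told apart.

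The probes carry a contig-style name (14052 with the prefix JFC and 17 with the prefix POC) or the name of a GenBank entry (412 probes). The files pair them with no gene name, and 0 of the names matched the table of RefSeq genes used here. No gene, pathway or cell type marker is therefore described, the kidney label was not checked against markers, and several probes may report 1 transcript, so counts of probes are not counts of genes. Single probes are identified for 2 that were higher and 2 that were lower, and other single probes are given by rank.

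The 3 E. tarda arrays shared slide 1 with the S. iniae arrays of 6 h, in another row, and the 4 PBS arrays lay on slide 3 with the PBS arrays of 12 h. Slide and treatment thus cannot be told apart in the comparison with PBS. The scanner software flagged 9583, 10149 and 10666 probes as well above background on the E. tarda arrays, against 9795, 9293, 9227 and 9134 on the PBS arrays. The mean count was 770.4 probes higher on the E. tarda arrays, but PBS replicate 1 lay above E. tarda replicate 1, and a two-sided exact permutation test of the 3 and 4 arrays gave p = 0.114. The 75th percentile of the signal lay between 305.4 and 379.9 on the E. tarda arrays and between 244.8 and 438.9 on the PBS arrays. From the dimmest spot well above background to the brightest spot, the signal spanned 4.39 to 4.64 log10 units on the E. tarda arrays and 4.19 to 4.47 on the PBS arrays (exact permutation p = 0.229). The dimmest such spot read 11.6 to 16.7 on the E. tarda arrays and 17.1 to 33.1 on the PBS arrays. The brightest read 410848 to 503747 and 501924 to 517748. The S. iniae arrays of 6 h, on slide 1 as well, read 10047 to 10393 probes well above background. Their signal spanned 4.46 to 4.60 log10 units, and their dimmest such spot read 13.2 to 15.4. No spot was saturated.

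Of 11066 tested probes, 3111 differed between E. tarda FKC and PBS (limma, Benjamini-Hochberg adjusted p under 0.05), which was 28.1% of those tested. They divided into 1557 higher probes (14.1%) and 1554 lower probes (14.0%). Levels are log2 signal relative to the 75th percentile of the array's signal, and a change is the difference of the group means on that scale. The even split moved with the scaling, to 1386 higher and 1756 lower probes when each array was scaled to its median. Without E. tarda replicate 2 the count of called probes was 1994. The median change over all tested probes was -0.01, with a median standard error of 0.284.

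The sizes of the changes were not even. Called higher probes had a median change of 1.23 and a 5th to 95th percentile of 0.597 to 3.63, whereas called lower probes had a median of -0.96 and a corresponding range of -2.08 to -0.55. At 2-fold or more, 1017 probes were higher and 724 lower, which were 9.19% and 6.54% of the tested probes. At 4-fold or more, 305 were higher (2.76%) and 89 were lower (0.804%). At 8-fold or more, 124 were higher (1.12%) and 10 were lower (0.0904%). At 32-fold or more, 34 were higher and 0 were lower.

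These counts include probes that were near background in one group, where the fitted size is not a measured fold. Among the 8010 probes well above background on all 7 arrays, 1040 were called higher (12.98%) and 1317 lower (16.44%). At 4-fold or more the numbers in this set were 143 higher and 29 lower, and at 8-fold or more 59 higher and 2 lower. The change was at least 64-fold upward for 9 of these probes. The extremes of the set were a 167.6-fold rise and a change of -3.65. In this set too the upper tail was longer than the lower tail. The set leaves out probes that fell to background and probes that rose from it. A fall within it was limited by the background, whereas no spot was saturated, and the part of this limit was not tested.

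**Figure D1:**
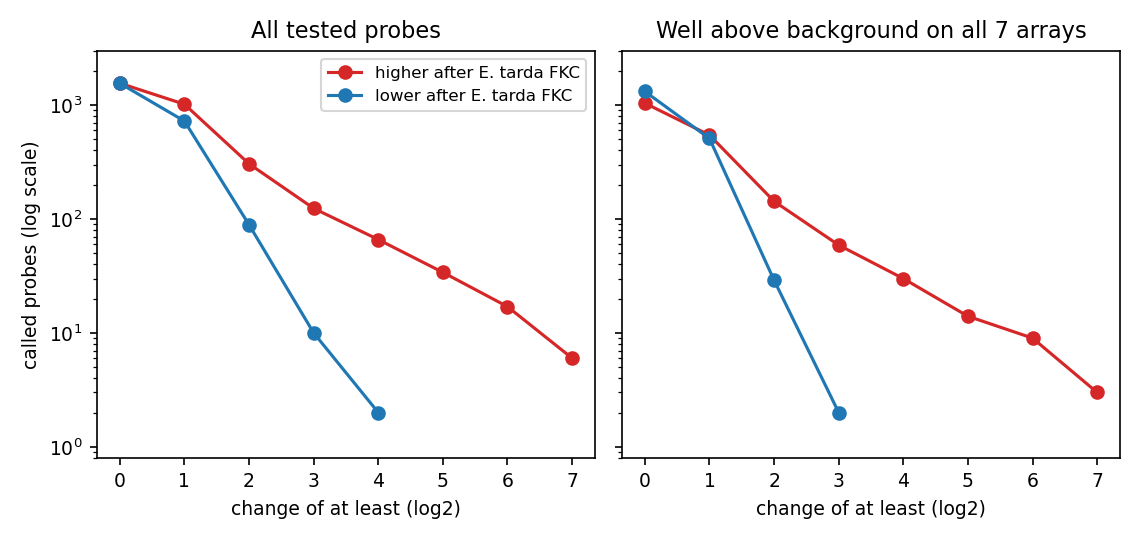
Number of called probes (log scale) whose change reached at least the size on the horizontal axis (log2), for probes higher (red) and lower (blue) after E. tarda FKC than after PBS at 6 h. The left panel shows all 11066 tested probes and the right panel the 8010 probes well above background on all 7 arrays, where 59 probes were higher and 2 lower by 8-fold or more.

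The share of the signal carried by the called probes is a measure of the size of the response on each array. The called higher probes carried 9.90%, 11.8% and 10.2% of the summed signal on the E. tarda arrays, against 3.22%, 3.03%, 3.14% and 3.40% on the PBS arrays. The called lower probes carried 14.8%, 13.0% and 13.8% on the E. tarda arrays, against 21.5%, 20.6%, 21.9% and 21.2% on the PBS arrays. The probes higher by 8-fold or more carried 3.02%, 3.45% and 2.67% on the E. tarda arrays, against 0.131%, 0.0973%, 0.128% and 0.183% on the PBS arrays. In each case the groups did not overlap, and no test is attached because these arrays chose the probes.

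The brightest transcripts were largely the same in both groups. Of the 100 brightest probes by group mean, 87 were shared. Of the 13 that were among the brightest only after E. tarda FKC, 5 were called higher, the largest by 4.72 on the log2 scale. Of the 13 that were among the brightest only after PBS, 8 were called lower. Picking probes by these group means favoured calls in those directions. Of all 100 brightest after E. tarda FKC, 5 were called higher and 15 lower, and of the 100 brightest after PBS 0 and 23. Over all tested probes the shares were 14.1% and 14.0%. The 10 brightest probes of each array carried 11.05%, 11.5% and 12.6% of the signal on the E. tarda arrays, against 10.8%, 14.6%, 10.9% and 10.8% on the PBS arrays, where PBS replicate 2 stood apart.

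The changes of the called probes differed in size between the 3 E. tarda arrays. These arrays helped to choose the probes, and the differences between them were not tested. Measured against the PBS mean, the median change of the called higher probes was 1.07, 1.39 and 1.29 on replicates 1, 2 and 3. For the called lower probes it was -0.81, -1.14 and -0.96. By these medians replicate 1 was the weakest and replicate 2 the strongest in both directions. On all 3 arrays together, 378 probes lay at least 2-fold above the whole PBS range and 110 at least 2-fold below it. A pattern in which E. tarda replicates 2 and 3 lay at least 2-fold above the PBS range while replicate 1 lay inside it was found for 35 probes, and the downward form for 31. The same pattern with replicate 2 as the array inside the PBS range was found for 4 probes upward and 5 downward, and with replicate 3 for 6 upward and 8 downward. Probes with a single E. tarda array at least 2-fold outside the PBS range were not ordered in that way, with 25 above and 24 below for replicate 1, 7 above and 27 below for replicate 2, and 28 above and 9 below for replicate 3.

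Across the tested probes, pairs of E. tarda arrays correlated at 0.952 to 0.968 and pairs of PBS arrays at 0.957 to 0.973, whereas pairs with 1 array of each group correlated at 0.894 to 0.923. These correlations describe 11028 probes with a value on every array, and probes are not independent replicates. The median SD of a probe was 0.367 over the E. tarda arrays and 0.283 over the PBS arrays. Of the called probes, 2673 had no overlap between the arrays of the groups, 1366 of them higher and 1307 lower. Over all 11066 tested probes, 1932 lay higher and 1872 lower without overlap, and the called probes were chosen for such separation.

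The direction of the changes varied with the level of the probe. The tested probes were divided into 5 classes of equal size by mean level over the 22 arrays. From the dimmest to the brightest class, 14.3%, 15.9%, 14.3%, 14.8% and 11.1% were called higher. Over the same classes 4.97%, 10.9%, 15.5%, 19.1% and 19.7% were called lower. A dim probe could be tested through only the arrays of the group where it was bright, and its fall could not be read below background. The part of the filter and of background in these shares was not tested. The median change of all probes in a class was 0.34, 0.10, -0.03, -0.10 and -0.20, while the median standard error was 0.508 in the dimmest class and 0.220 in the brightest. After normexp background correction and quantile normalization the medians lay between 0.03 in the dimmest class and -0.13 in the brightest, and 4.83% and 24.5% of those classes were called lower. The share called higher was then 11.3% in the dimmest class and 16.1% in the brightest, so its lower value in the brightest class was not kept under that processing. Without that processing, S. iniae FKC against the same PBS arrays gave class medians of 0.10, 0.05, 0.01, -0.02 and -0.08, in the same order. The S. iniae arrays of 6 h shared slide 1 with the E. tarda arrays.

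Control measurements also differed between the groups. The spike-in probes, which detect RNA added in known amounts during labelling and not kidney RNA, differed by -0.94 to 0.01 between the E. tarda and PBS arrays. Of the 7 spike-in probes, 6 were lower on the E. tarda arrays and 2 had an unadjusted limma p under 0.05, with a median difference of -0.33. From the dimmest to the brightest by level on the PBS arrays, they differed by -0.36, 0.01, -0.25, -0.54, -0.33, -0.94 and -0.24. Whether these differences followed level was not tested. The slope of spike-in signal on added amount, as the scanner software reports it, was 0.948 to 0.969 on the E. tarda arrays and 0.987 to 1.019 on the PBS arrays. The groups did not overlap, and the exact permutation p of 0.0571 is the smallest that 3 against 4 arrays can give (0.143 adjusted over 5 array measures). The scanner software also reports a root mean square of its fitted multiplicative detrending. It was 0.175 to 0.231 on the E. tarda arrays and 0.0698 to 0.0796 on the PBS arrays, with the same p-values. On the S. iniae arrays of 6 h, which shared slide 1, it was 0.146 to 0.243, and over all arrays of slides 2 and 3 it was 0.0628 to 0.0887. The spike-in slope of those S. iniae arrays was 0.971 to 0.989. The part of these array differences in the called changes was not tested.

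**Figure D2:**
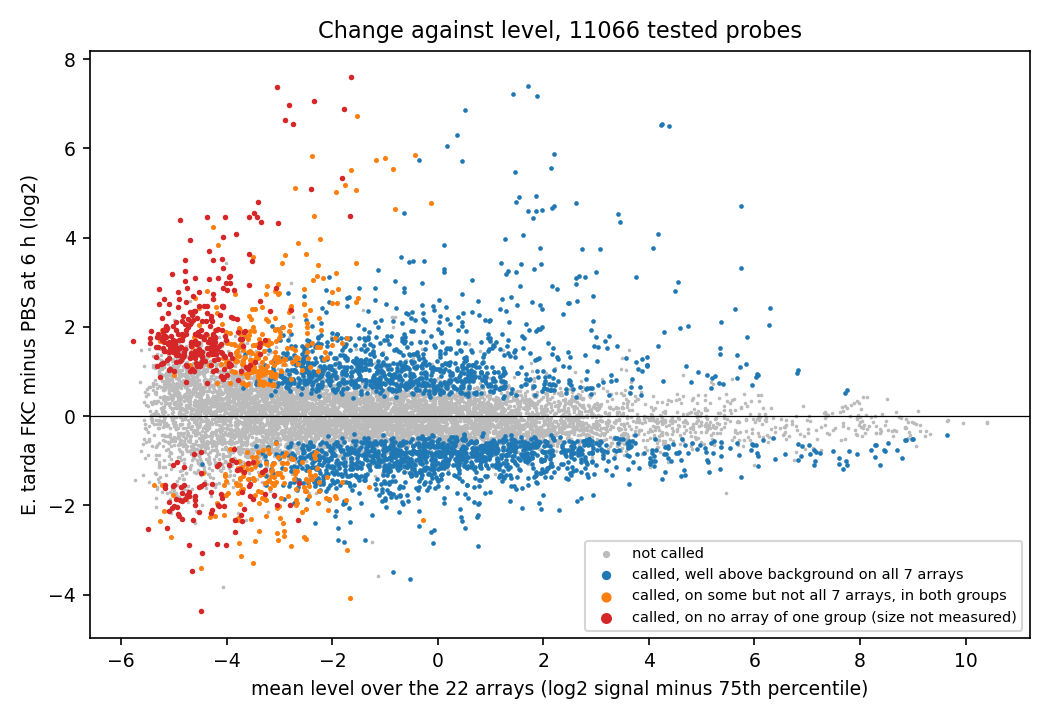
Change between E. tarda FKC and PBS at 6 h (log2, vertical) against the mean level over the 22 arrays (log2 signal minus the 75th percentile, horizontal) for 11066 tested probes. Colours mark called probes by whether they were well above background on all 7 arrays, on some but not all arrays with both groups represented, or on no array of one group, and the rises reach further from 0 than the falls, with extremes of 7.39 and -3.65 among probes well above background on all 7 arrays.

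A probe was counted as induced from undetected when it was well above background on 3 of 3 E. tarda arrays and on 0 of 4 PBS arrays. The class held 240 probes, of which 176 were called higher and 0 lower. Such probes passed the filter only with the help of the arrays on which they were bright, so this count is a description and not support for a rise. The opposite class, well above background on 0 of 3 E. tarda arrays and on 4 of 4 PBS arrays, held 26 probes, of which 21 were called lower. The dimmest spot well above background read 16.4, 16.7 and 11.6 on the E. tarda arrays, against 23.0, 17.1, 24.8 and 33.1 on the PBS arrays. The counts of these opposite classes therefore do not rest on the same floor. On the S. iniae arrays of 6 h, which shared the slide with the E. tarda arrays and are set against the same PBS arrays, the corresponding classes held 191 and 5 probes. Using the less strict flag of the scanner software, positive and significant signal, 28 probes were called and induced from undetected, so the class depends on the flag. Only 16 of them were among the 176. Undetected here thus means not well above background, and most of the 176 left the class under the less strict flag.

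**Figure D3:**
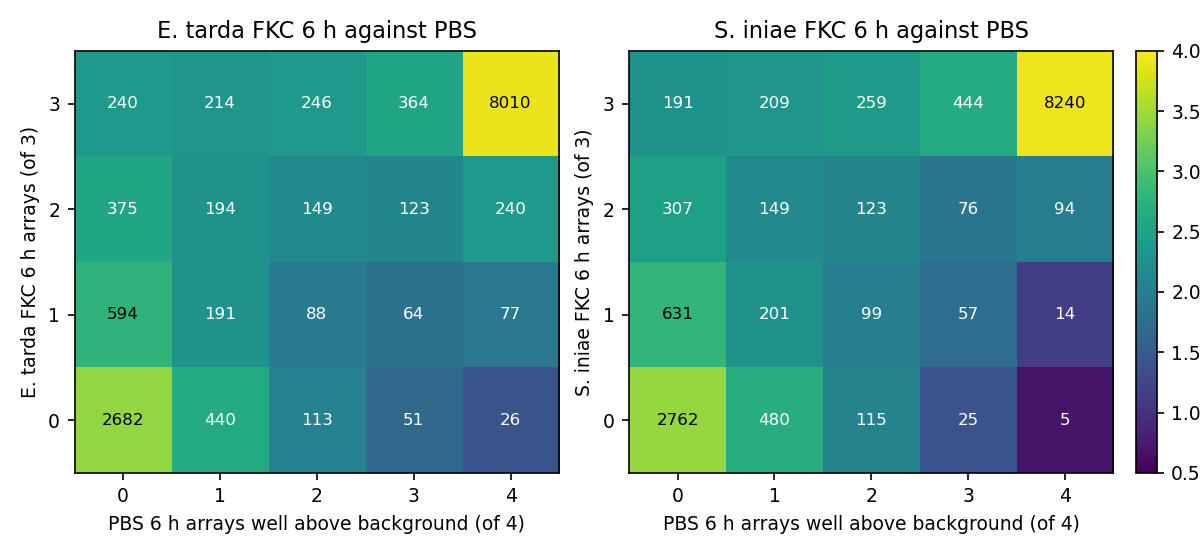
Number of probes by how many FKC arrays (vertical, 0 to 3) and how many PBS arrays (horizontal, 0 to 4) read them well above background at 6 h, for E. tarda FKC (left) and S. iniae FKC (right), with colour as log10 of the number. The upper left cell holds 240 probes for E. tarda FKC and 191 for S. iniae FKC, and the lower right cell holds 26 and 5.

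Most induced probes stayed dim. The 176 called ones had a median level of -3.05 on the E. tarda arrays and -5.02 on the PBS arrays, both far below the 75th percentile at 0. Their folds are lower bounds, taken as the E. tarda mean over the mean of the higher of the probe's own PBS value and the dimmest signal well above background on each PBS array. The median bound was at least 1.80-fold, 74 probes were at least 2-fold higher, 13 at least 8-fold and 5 at least 32-fold. For 9 of the 176 the bound did not exceed 1, so no fold is given. Among the 21 lost probes the median bound was at least 2.80-fold and the largest at least 4.98-fold lower. Bounds of lost probes use the lower floor of the E. tarda arrays, so they are not comparable in size with those of induced probes. Of the 1557 called higher probes, 1040 were raised from a level well above background on every array, 272 came from no PBS array well above background, and 245 were partly detected.

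A few induced probes reached levels above the 75th percentile of the array. They were ranked by these same arrays, so their p-values describe the fit and are no independent support. Each p-value tests the fitted change, which uses PBS values not well above background, and not the bound. The induced probe with the largest bound, a contig-named probe, had levels of 1.90, 2.32 and 1.57 on the E. tarda arrays, against -4.93, -6.06, -6.14 and -4.61 on the PBS arrays. It was at least 56.9-fold higher (limma adjusted p = 4.17e-09). On every E. tarda array it was bright, and on every PBS array it lay near the bottom of the scale. Its S. iniae arrays were all well above background.

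The induced probe ranked 6 by bound, also contig-named, had levels of 0.95, 2.34 and -0.17 on the E. tarda arrays, against -6.02, -5.89, -5.99 and -5.83 on the PBS arrays. It was at least 30.7-fold higher (limma adjusted p = 1.55e-09). Its E. tarda values spread widely (SD 1.26) with replicate 2 highest, and still no array of the groups overlapped. The fitted standard error of 0.420 pools the spread of all 6 groups, so the p-value does not measure the E. tarda spread alone. This probe was well above background on 0 of 3 S. iniae arrays. The probes ranked 7 and 8 were likewise at least 26.2-fold and 24.1-fold higher after E. tarda FKC and were well above background on 0 S. iniae arrays.

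Detection of the 176 probes on other arrays varied. On the S. iniae arrays of 6 h, 68 were well above background on all 3 arrays and 49 on none. On the PBS arrays of 12 h, 152 were well above background on none and 0 on 3 or more. On the E. tarda arrays of 12 h, 43 were well above background on all 4 arrays and 63 on none. Those arrays lay on another slide and read 8084 to 9357 of all probes well above background, against 9583 to 10666 at 6 h. Their dimmest spot well above background read 19.7 to 26.6, against 11.6 to 16.7 at 6 h. Whether the RNA of the 63 had fallen by 12 h was not tested. Against PBS at 12 h, 81 of the 176 were called higher and 8 lower, where 15.6% and 20.3% of all tested probes were called.

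The changes of the called probes in the other comparisons of these arrays are set side by side. The called higher probes had a median change of 1.23 against PBS, where S. iniae FKC against the same PBS arrays had a median of 0.37. Against S. iniae FKC on the same slide, the same E. tarda arrays had a median of 0.86. For the called lower probes the E. tarda median was -0.96 against PBS, the S. iniae median was -0.27 against PBS, and E. tarda FKC against S. iniae FKC gave -0.68. Over all tested probes, 1.59% were called for S. iniae FKC against PBS and 14.0% for E. tarda FKC against S. iniae FKC. These comparisons share E. tarda or PBS arrays, so they are not independent of each other. The comparison within slide 1 holds no difference between slides, although the groups lay in different rows.

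The 12 h comparison shares no array with that of 6 h, although slide 3 held the PBS arrays of 6 h and of 12 h. Both come from the same fit with a shared spread for each probe, so their calls are not independent. The E. tarda arrays lay on slide 2 at 12 h and on slide 1 at 6 h. Time and slide thus cannot be told apart in the difference between the 12 h and 6 h changes. Of the 1557 probes higher at 6 h, 857 were called higher and 65 lower at 12 h, where 15.6% and 20.3% of all tested probes were called. Of the 1554 probes lower at 6 h, 713 were called lower and 28 higher at 12 h. The difference between the 12 h and 6 h changes was itself called for 344 of the higher and 252 of the lower probes, against 11.3% of all tested probes. The 59 probes higher by 8-fold or more with signal well above background on all 7 arrays had a median change of 4.09 at 12 h and 4.06 at 6 h, and all 59 were called higher at 12 h.

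The GenBank-named probes were a small and bright part of the design. Of 412 such probes 320 were tested (77.7%), against 76.4% of the contig-named probes. Their median level on the PBS arrays was 0.45, against -1.38 for contig-named probes, and 42.5% of them lay in the brightest of the 5 level classes, against 19.3%. On the E. tarda arrays the median levels were 0.86 for the GenBank-named and -1.35 for the contig-named probes. How entries were chosen for the design is not given in the sources used here.

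Their share of called probes was near that of the array, but their rises were larger. Of the 320 tested, 97 were called (30.3%, against 28.1% of all tested), with 58 higher (18.1%) and 39 lower (12.2%). At 8-fold or more, 22 were higher (6.88%), against 102 of the 10746 contig-named probes (0.949%). GenBank-named probes thus made up 17.7% of the rises of 8-fold or more and 2.89% of the tested probes. The median change of the called higher probes was 2.50 for GenBank-named and 1.22 for contig-named probes, and 1.79 and 1.02 where all 7 arrays read them well above background, while the median over all tested was -0.07 and -0.01. From the dimmest to the brightest level class, the GenBank-named rises of 8-fold or more numbered 2, 4, 5, 4 and 7. The contig-named ones numbered 19, 23, 14, 11 and 35. The classes rest on all 22 arrays, including those on which these probes rose. The part of level in the larger share of GenBank-named rises was not tested. No test of these names as a set was made.

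**Figure D4:**
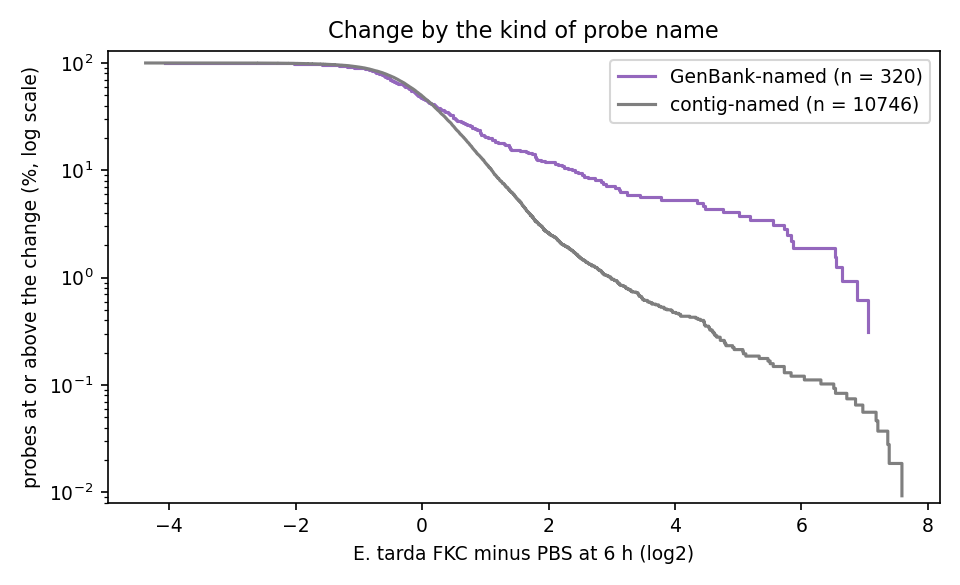
Percent of tested probes (log scale) whose change between E. tarda FKC and PBS at 6 h was at or above the value on the horizontal axis (log2), for 320 GenBank-named and 10746 contig-named probes. The curves part above 0, with the 95th percentile at 3.81 for GenBank-named and 1.56 for contig-named probes. Percentages at or above a change on a log scale do not resolve the lower tail, where the 1st percentiles were -2.63 and -1.95.

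In this class too, detection separates measured folds from bounds. Of the GenBank-named probes, 245 were well above background on all 7 arrays, with 35 called higher (14.3%) and 32 lower (13.1%), against 12.98% and 16.44% of all probes in that set. Of the 22 rises of 8-fold or more, 9 were in this measured set and 5 had no PBS array well above background. The class induced from undetected held 11 GenBank-named probes, of which 9 were called, with bounds from at least 1.39-fold to at least 46.8-fold. On the side of falls, 24 GenBank-named probes were lower by 2-fold or more (7.5%, against 6.54% of all tested). At 4-fold or more 5 were lower (1.56%, against 0.804%), and at 8-fold or more 2 (0.625%, against 0.0904%).

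The GenBank-named probe with the largest bound had levels of 1.82, 2.13 and 1.0 on the E. tarda arrays, against -5.06, -5.80, -4.38 and -5.68 on the PBS arrays. It was at least 46.8-fold higher (limma adjusted p = 2.71e-07). The p-value tests the fitted change and not this bound. All E. tarda arrays lay above the 75th percentile and no PBS array was well above background. All 3 S. iniae arrays were also well above background.

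The 22 GenBank-named probes with rises of 8-fold or more were all called higher at 12 h as well. So were 116 of all 124 probes with such rises, and 15.6% of all tested probes. Among the 22, the 9 in the measured set had median changes of 4.83 at 12 h and 4.44 at 6 h. Against the PBS arrays of 6 h, S. iniae FKC gave a median of 1.29 for these 9, and E. tarda FKC gave 3.56 against S. iniae FKC. The time difference, in which the slide also differed, was called for 2 of the 22, both smaller at 12 h, against 11.3% of all tested probes. The probe ranked 15 by rise had levels of 4.67 to 5.21 on the E. tarda arrays and 0.32 to 0.80 on the PBS arrays at 6 h, with a change of 2.41 at 12 h and 4.44 at 6 h. The probe ranked 18 had a change of 1.08 at 12 h and 3.44 at 6 h.

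Among called probes without overlap between the groups and with signal well above background on all 7 arrays, 924 were higher and 1115 lower, of which 30 and 29 were GenBank-named. The largest rise and the largest fall were taken from each kind of name. The largest rise in this set was CUST_6587_PI426483990, named JFC00244_1_code. Its levels were 5.05, 4.84 and 5.38 on the E. tarda arrays, against -1.58, -3.14, -3.15 and -1.33 on the PBS arrays. The E. tarda arrays lay close together and far above every PBS array, and the PBS arrays formed a higher and a lower pair. The means were 5.09 ± 0.27 after E. tarda FKC (SD, n = 3) and -2.30 ± 0.98 after PBS (SD, n = 4), and the change was 7.39 with a standard error of 0.55, or 167.6-fold (limma adjusted p = 1.48e-08). S. iniae FKC differed from PBS by 2.46 (limma adjusted p = 0.0246). At 12 h the E. tarda change was 8.48. After normexp background correction and quantile normalization its 6 h change was 6.27, below the 6.68 of the probe described next.

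The largest rise of a GenBank-named probe in this set was CUST_63_PI426483993, named AY533022. Its levels were 6.74, 7.56 and 6.67 on the E. tarda arrays, against -0.10, 0.47, 0.91 and 0.51 on the PBS arrays. It lay far above the 75th percentile on every E. tarda array and close to it on every PBS array, with no overlap. The means were 6.99 ± 0.49 after E. tarda FKC (SD, n = 3) and 0.45 ± 0.41 after PBS (SD, n = 4), a change of 6.54 with a standard error of 0.45, or 93.3-fold (limma adjusted p = 7.04e-09). The change was 2.32 for S. iniae FKC against PBS (limma adjusted p = 0.0129) and 6.63 for E. tarda FKC at 12 h. The GenBank-named probe next in rank differed from it by at most 0.0995 on each of the 7 arrays, and by a median of 0.0673 and at most 0.433 over the 22 arrays, and whether the pair reports 1 transcript was not tested.

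Among called probes without overlap and well above background on all 7 arrays, the largest fall was CUST_12227_PI426483990, named JFC16209_1_code. Its levels were -3.28, -2.78 and -1.79 on the E. tarda arrays, against 1.06, 0.73, 3.27 and -0.92 on the PBS arrays. The groups did not overlap, but the PBS arrays spread widely and the lowest of them lay near the highest E. tarda array. The means were -2.62 ± 0.76 after E. tarda FKC (SD, n = 3) and 1.04 ± 1.72 after PBS (SD, n = 4), a change of -3.65 with a standard error of 0.86, or 12.6-fold lower (limma adjusted p = 0.00416). The size rested on single arrays and on the processing: the change was -2.91 without PBS replicate 3, -4.30 without PBS replicate 4, and -2.65 when normexp correction and quantile normalization were used. S. iniae FKC differed from PBS by 0.08 (limma adjusted p = 0.984), and at 12 h the E. tarda change was -6.91. E. tarda replicates 1 and 3 of 12 h were not well above background, so that change is not a measured size. Outside the set, the fitted changes of called lower probes at 6 h reached -4.37.

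The largest fall of a GenBank-named probe in the same set was CUST_85_PI426483993, named AB562152. Its levels were -2.52, -3.07 and -3.62 on the E. tarda arrays, against -0.23, -0.35, 0.17 and -0.57 on the PBS arrays. The groups lay well apart, with the E. tarda arrays more spread than the PBS arrays. The means were -3.07 ± 0.55 after E. tarda FKC (SD, n = 3) and -0.24 ± 0.31 after PBS (SD, n = 4), a change of -2.83 with a standard error of 0.33, or 7.10-fold lower (limma adjusted p = 4.53e-06). After normexp background correction and quantile normalization the change was -1.62. S. iniae FKC differed from PBS by -0.77 (limma adjusted p = 0.300), and E. tarda FKC from PBS at 12 h by -4.40. No E. tarda array of 12 h read the probe well above background, so the change at 12 h has no measured size. Outside the set, the fitted changes of called lower GenBank-named probes at 6 h reached -4.07.

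**Figure D5:**
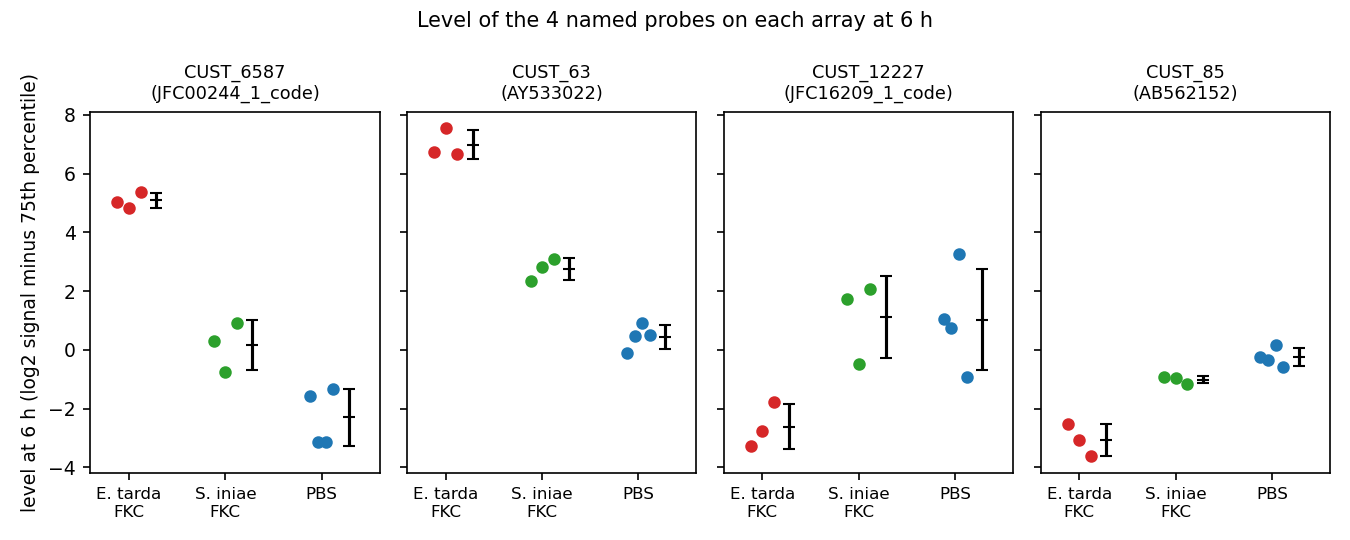
Level of the 4 identified probes on each array at 6 h (log2 signal minus the 75th percentile), E. tarda FKC at the left of each panel, PBS at the right and S. iniae FKC between them, points for arrays and the mean ± SD beside them. The E. tarda arrays lie apart from the PBS arrays for all 4 probes, and the PBS arrays of CUST_12227_PI426483990 span -0.92 to 3.27.

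Probes that share a source did not always give the same change. The tested probes included 28 contig numbers or GenBank entries with more than 1 probe, 68 probes in all. The probes of a source shared their call for 17 sources, of which 15 had no called probe, and were called in part for 10. For 1 contig number the calls were opposite, with changes of 1.14 and -0.87. The difference between the highest and lowest change of a source had a median of 0.484 and reached 3.55, and the changes had 1 sign for 18 of the 28 sources. Of the 20 probes printed as 10 spots each, 18 were tested and 3 were called higher and 4 lower (38.9%, against 28.1% of all tested probes), and spots of such a probe had a median SD of 0.0836 within an array, against a median SD between arrays of 0.225 for E. tarda FKC and 0.235 for PBS.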

How the data were processed

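Kidney RNA was hybridised to 1-colour arrays on 3 slides. Spot intensity values were deposited as scanner files. Per the file headers, Feature Extraction 10.7.3.1 subtracted background and removed spatial trend on every array, whereas version 9.5.3.1 is named in the submitters' processing notes. A table of log2 values from the authors was used as an alternative. Compared with the scanner files, it equals log2 signal less the 75th percentile of the array and less, for every probe, the median PBS array at that time, with 100.0% of values within 0.1 and 95.44% within 0.01. Its column medians lay between -0.077 and 0.024 on the 7 arrays.

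Here log2 processed signal minus the 75th percentile of the array was averaged over the spots of a probe, without control and outlier spots, which left 94 missing values. Tested were the 11066 of 14481 probes that at least 3 of the 22 arrays read well above background. The 6 group means were fitted with lmFit and eBayes (limma 3.58.1, R 4.3.3) to the 22 arrays together. Called probes had a Benjamini-Hochberg adjusted p under 0.05. Array measures were compared with two-sided exact permutation tests. The slide could not be a term, because every group had a single slide. Precision is limited by the number of arrays.

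Probes are identified by ID where they had the largest change of each direction and kind of name, among those called, without overlap between groups and well above background on all 7 arrays. Single probes given by rank were chosen after their values were seen. The groups of probes and this rule were chosen with earlier results of these data known. Same-numbered E. tarda and PBS samples correlated at 0.071, 0.022 and -0.041 in their deviations from the group means, so the numbers were not taken as pairs. No probe sequence was used here. Alternatives were other normalizations, filters, detection flags, fits and weights, a 2-fold minimum, a replicate block and leaving out each array.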

Additional observations from a re-analysis of the deposited data

Results flagged for a closer look

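Of 13 checks for an array far from the others of its group, 2 were met on the 4 PBS arrays, and chance meets about 1 in 20. The lowest spike-in slope lay apart by 0.862 of the range of the group, and the highest share of signal in the 10 brightest probes, on replicate 2, by 0.985 of it.

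E. tarda FKC differed from S. iniae FKC at 6 h for each of the 4 identified probes, with limma adjusted p-values of 1.89e-05 for CUST_6587_PI426483990, 1.15e-05 for CUST_63_PI426483993, 0.0111 for CUST_12227_PI426483990 and 0.000666 for CUST_85_PI426483993. These probes were chosen for their changes on the same E. tarda arrays, so the p-values are no independent support. Over all tested probes 14.0% were called in that comparison. The E. tarda effect differed between 12 h and 6 h for CUST_85_PI426483993 by -1.57 (limma adjusted p = 0.0316). No E. tarda array of 12 h read this probe well above background, so -1.57 is not a measured size. The E. tarda effect also differed for the GenBank-named probes ranked 15 and 18 by rise (limma adjusted p = 0.00120 and 0.00304), both with a smaller change at 12 h. The E. tarda arrays of 12 h were on another slide than those of 6 h, which the test of 12 h against 6 h does not separate from time. For the induced probe with the largest bound the same test gave a limma adjusted p of 0.00317, but 0 PBS arrays of either time read it well above background, so neither change has a measured size.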

How the results depend on the processing

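The count of called probes (3111) stayed within 1.5 times under 17 of 19 alternatives. It was 1994 without E. tarda replicate 2, the lowest of a range of 1994 to 3417 when each array was left out, and 1741 with a 2-fold minimum. The 7 arrays fitted alone gave 2191. The count of called probes induced from undetected (176) stayed within 1.5 times under 18 of 19 alternatives, ranged from 148 to 243 when each array was left out, and was 28 when detection was read from the flag for positive and significant signal, of which 16 were among the 176. The rest of the 176 did not meet the definition of the class under that flag, and which arrays changed was not counted. The count of called GenBank-named probes (97) stayed within 1.5 times under all 18 alternatives run for it and ranged from 74 to 104 when each array was left out. With the replicate number as a block, the counts were 2923, 166 and 96. The 4 identified probes were called in the same direction under 18 of 18 alternatives each. Slides differed between the groups, no alternative could remove that, and probes below background have no measured fold.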
